A study of Mus musculus with 2 samples.

Results

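The tumour necrosis factor (TNF) superfamily was examined in spleens remodelled with silica (SiO2) and in control spleens given phosphate-buffered saline (PBS). The list held 35 mouse genes, 14 ligands and 21 receptors, and was chosen by gene family, with the lymphotoxin axis of white pulp structure included. This list and the other gene lists used below were chosen with earlier results of these data known. A gene was measured by the probes whose accession mapped to its symbol. Of the 35 genes, 34 had such a probe, among 20649 named genes with a probe on the array, and 32 were above background on at least 1 array, among 16774 such genes.

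Each group was 1 array, hybridised with Cy3-labelled RNA pooled from 5 spleens of female mice. The SiO2 pool and the PBS pool were both taken 19 days after the first injection. The labels' protocols name a blood RNA kit with separate lysis steps for erythrocytes and leukocytes, followed by depletion of globin transcripts, for both pools. The series design also names comparisons of fibroblasts, hepatocyte-like cells and liver, which are not analysed here. Strain, age, dose and route of injection are not given in the sources used here. With 1 array a group there is no replicate, so no test could be run and no spread between animals is known. A pool gives 1 value for 5 animals, and in such bulk RNA fewer cells of a type and less RNA per cell cannot be told apart.

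The comparison asks how the remodelled spleen differs from the control spleen in the signals that immune cells exchange through this family. Ligands of the TNF family are mostly trimeric proteins on the cell surface or shed from it, and their receptors recruit TRAF adaptors or death-domain adaptors. From there they act on NF-kB, on survival or on cell death. In the spleen, membrane lymphotoxin made from Lta and Ltb on lymphocytes acts through Ltbr on stromal cells and keeps the B cell follicles and T cell zones of the white pulp in order. BAFF and its receptors keep B cells alive, and CD40, OX40, 4-1BB and GITR carry co-stimulation between lymphocytes and antigen-presenting cells.

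The values given are the processed signals of each array in arbitrary units and the difference in log2 signal, SiO2 minus PBS, after the 75th percentile of each array was subtracted. That percentile was a signal of 469 on the SiO2 array and 670 on the PBS array, so equal signals before scaling stand for a higher scaled level in the SiO2 pool. The error after a difference (±) is the scanner software's own error of the 2 signals on the log2 scale. It covers neither animals, labelling nor hybridisation. Probes for different genes differ in brightness, so signals are set against each other only within a gene.

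Lymphocyte markers of the spleen were present in both pools. All 12 B cell markers and all 14 T cell markers were above background on both arrays. The summed scaled signal, in which each probe is divided by its array's 75th percentile, was 101 in the SiO2 pool and 144 in the PBS pool for B cell markers. For T cell markers it was 30.3 in the SiO2 pool and 40.5 in the PBS pool. For erythroid markers it was 174 in the SiO2 pool and 55.2 in the PBS pool, and for neutrophil markers 194 in the SiO2 pool and 84.7 in the PBS pool. Hepatocyte markers summed to 0.59 in the SiO2 pool and 0.78 in the PBS pool. The brightest of them was Serpina1a, with a signal of 154 in the SiO2 pool and 365 in the PBS pool. Of 6 hepatocyte markers measured, however, 4 lay above 0, with a median log2 difference of 0.21.

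As a family the genes lay modestly lower in the SiO2 pool, with the death ligand Tnfsf10 furthest down and Tnfrsf1a, Ltb and Ltbr of the lymphotoxin and TNF axis next. A difference could be given for 31 genes. Of these, 2 were at least 2-fold lower, Tnfsf10 and Tnfrsf1a, where 3.71% of 16693 named genes were. None was at least 2-fold higher, where 6.65% of named genes were. With 31 genes these counts lie near those shares. At a size of 1.5-fold, which was chosen after the values were seen, 10 were lower, beside 12.3% of named genes, and 2 were higher, Tnfrsf14 and Cd70, beside 16.1%. Cd70 was above background on the SiO2 array only, and its value is a bound. With both arrays required above background, 1 member was higher. The 10 lower genes were Tnfsf10, Tnfrsf1a, Ltb, Ltbr, Cd40, Tnfrsf13c, Tnfrsf19, Tnfrsf25, Tnfsf14 and Tnfrsf12a. In all, 23 of the 31 lay below 0, beside 48% of named genes, and their median log2 difference was -0.28, beside 0.03 for all named genes. Both classes took part, with 8 of 11 ligands and 15 of 20 receptors below 0 and medians of -0.36 and -0.23.

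**Figure D1:**
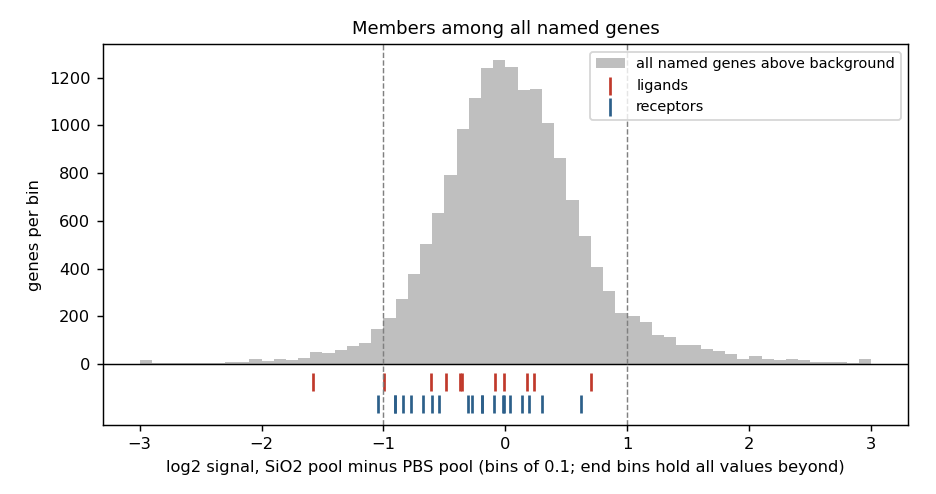
Histogram of the log2 difference, SiO2 pool minus PBS pool, of 16693 named genes in bins of 0.1, with the 11 ligands and 20 receptors as ticks under it and dashed lines at 2-fold. Most ticks lie left of 0, 2 lie beyond the lower 2-fold line and none beyond the upper one.

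The direction of the median depends on what the arrays are centred on. With the SiO2 array shifted to bring the median of 26 lymphocyte markers (B and T cell) to 0, the median of the family was 0.15, 12 of 31 members lay below 0 and the median of all named genes was 0.46. That shift also moved the share of higher genes among all genes differing 2-fold to 92.2%, against 64.2% without it. The shift turned 11 members positive, namely Tnf, Tnfsf8, Tnfsf9, Tnfsf11, Tnfrsf1b, Tnfrsf4, Tnfrsf9, Tnfrsf10b, Tnfrsf11a, Tnfrsf11b and Relt, and it left Tnfrsf1a at -0.62, within 2-fold. Relative to the median of all named genes, the family's median was -0.31, and from -0.34 to -0.25 under the other alternatives. The shift adds the same amount to every gene and so cannot move this value. Normexp also moved the median of all named genes, to 0.18, and that of the family was then -0.11. B cell markers themselves had a median of -0.54 and T cell markers one of -0.25, while macrophage markers had -0.79. The part of these cell types in the differences of the family was not tested.

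Promoter sequences are shown for 5 members, the 3 with the lowest differences, Ltbr as the partner of Ltb, and Tnfrsf14 as the member measured on both arrays that lay highest. They are RefSeq promoters of build GRCm38.p6 on the strand of the gene, 250 bases before the start and 50 after it. Capitals mark 3 kinds of letters searched on both strands. These are the interferon-gamma activated site TTCNNNGAA, the core of interferon regulatory factor sites AANNGAAA, and the first 9 letters of a kB site, GGGNNTTTC.
Tnfsf10, chr3:27316827-27317126, plus strand: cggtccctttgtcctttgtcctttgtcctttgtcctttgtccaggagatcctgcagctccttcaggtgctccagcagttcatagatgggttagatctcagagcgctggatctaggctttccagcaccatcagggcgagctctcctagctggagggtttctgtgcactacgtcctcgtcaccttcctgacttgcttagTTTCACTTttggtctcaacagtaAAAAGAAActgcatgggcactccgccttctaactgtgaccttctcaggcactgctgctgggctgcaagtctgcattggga
Tnfrsf1a, chr6:125349473-125349772, plus strand: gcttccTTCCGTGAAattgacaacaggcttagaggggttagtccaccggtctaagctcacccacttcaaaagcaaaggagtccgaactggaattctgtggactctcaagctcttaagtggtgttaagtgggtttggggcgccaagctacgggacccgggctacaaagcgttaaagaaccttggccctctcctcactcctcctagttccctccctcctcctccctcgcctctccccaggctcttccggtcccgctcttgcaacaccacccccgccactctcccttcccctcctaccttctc
Ltb, chr17:35194257-35194556, plus strand: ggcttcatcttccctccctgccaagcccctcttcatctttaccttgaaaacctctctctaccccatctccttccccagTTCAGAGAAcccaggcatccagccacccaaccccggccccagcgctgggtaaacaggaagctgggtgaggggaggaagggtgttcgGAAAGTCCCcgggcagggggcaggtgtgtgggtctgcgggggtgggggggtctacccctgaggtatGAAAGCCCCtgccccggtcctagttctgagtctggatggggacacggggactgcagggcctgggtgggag
Ltbr, chr6:125313836-125314135, minus strand: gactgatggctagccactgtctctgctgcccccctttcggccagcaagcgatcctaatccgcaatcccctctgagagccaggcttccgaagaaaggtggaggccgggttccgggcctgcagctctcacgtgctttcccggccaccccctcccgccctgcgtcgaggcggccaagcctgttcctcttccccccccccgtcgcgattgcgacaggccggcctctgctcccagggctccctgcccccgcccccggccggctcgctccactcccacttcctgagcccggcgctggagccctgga
Tnfrsf14, chr4:154928028-154928327, minus strand: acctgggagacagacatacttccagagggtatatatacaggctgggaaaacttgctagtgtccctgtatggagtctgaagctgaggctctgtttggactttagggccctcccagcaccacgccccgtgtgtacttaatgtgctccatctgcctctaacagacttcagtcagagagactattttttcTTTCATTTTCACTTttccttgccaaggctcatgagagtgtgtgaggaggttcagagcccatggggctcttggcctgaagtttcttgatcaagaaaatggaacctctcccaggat

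The Tnfsf10 promoter held 2 matches of the interferon regulatory factor core, beginning 53 and 30 bases before the start, and the Tnfrsf14 promoter held 2, at 64 and 58 bases, which overlap each other. These genes lay at opposite ends of the members measured on both arrays. The Ltb promoter held 2 matches of the kB letters, at 86 and 20 bases, and 1 of the activated site at 172 bases, the Tnfrsf1a promoter 1 of the activated site at 244 bases, and the Ltbr window none of the 3. Promoters were at hand for 27 of the 35 members. A member was counted where any of its promoters held the letters. The core occurred in 9 of the 27 (33.3%) and in 23.9% of 32851 promoters of the same length. The activated site occurred in 9 of the 27 (33.3%) and in 8.30% of those promoters, and the kB letters in 3 of the 27, Ltb, Tnfrsf25 and Tnfrsf9 (11.1%), and in 4.36%. A match of letters is a description of the window and not a bound site.

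Among the lymphotoxin and TNF genes, 7 of 8 lay lower in the SiO2 pool, with a median of -0.55, or 5 of 8 and -0.12 after the shift to lymphocyte markers. Ltb, the membrane anchor of surface lymphotoxin, had a signal of 8345 in the SiO2 pool, against 23708 in the PBS pool, a log2 difference of -0.99 ± 0.20. It stood just inside the 2-fold line and passed it under normexp (-1.02), quantile normalization (-1.08) and cyclic loess (-1.06). Lta, the other chain of the trimer, had a signal of 594 in the SiO2 pool and 1186 in the PBS pool, at -0.49. Its probe was printed in 10 spots, with signals from 569 to 636 in the SiO2 pool and from 1138 to 1260 in the PBS pool, and the difference had an SD of 0.052 over the spots. No unscaled spot of one array reached a spot of the other. The PBS array was brighter as a whole (75th percentile of 670 against 469), so unscaled spots can separate without a scaled difference.

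Tnf, the founding cytokine of the family, had a dim probe, with a signal of 61.5 in the SiO2 pool and 113.7 in the PBS pool, at -0.37 ± 0.21. Its 10 spots ranged from 40.4 to 72.4 in the SiO2 pool and from 107 to 128 in the PBS pool, and their differences from -0.89 to -0.15, with an SD of 0.20. Under normexp, which adds an offset that shrinks differences of dim probes, Tnf was at -0.07, where the median of all named genes was 0.18. Tnfsf14, or LIGHT, a ligand of both Ltbr and Tnfrsf14, had a signal of 145 in the SiO2 pool and 316 in the PBS pool, at -0.61. Ltb, Tnf and Lta are direct neighbours in the genome with no other protein-coding gene between them, and all 3 lay lower.

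The receptors of this axis were split. Ltbr, the lymphotoxin beta receptor of stromal and myeloid cells, had a signal of 1740 in the SiO2 pool and 4659 in the PBS pool, at -0.91 ± 0.20. Tnfrsf1a, the widely expressed TNF receptor with a death domain, had 2141 in the SiO2 pool and 6299 in the PBS pool and was 2.06-fold lower, at -1.04 ± 0.20. It was measured in 8 usable spots on both arrays, from 2075 to 2187 in the SiO2 pool and from 6057 to 6462 in the PBS pool, with an SD of the difference of 0.025. Its second, dimmer probe gave -0.59, within 2-fold. Ltbr and Tnfrsf1a lie next to each other in the genome with 1 gene, Scnn1a, between them.

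Tnfrsf1b, the second TNF receptor, which lacks a death domain, had a signal of 488 in the SiO2 pool and 862 in the PBS pool, at -0.31 ± 0.20. Tnfrsf14, the HVEM receptor of LIGHT and of the checkpoint protein BTLA, went the other way. It had a signal of 124 in the SiO2 pool and 115 in the PBS pool, at 0.62 ± 0.21, and its second probe had 94.8 in the SiO2 pool and 66.6 in the PBS pool, at 1.02. Both probes of Tnfrsf14 were above background on both arrays and pointed up. It was the only member of the axis above 0, and it kept a value above 0 in the authors' deposited table (0.54).

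**Figure D2:**
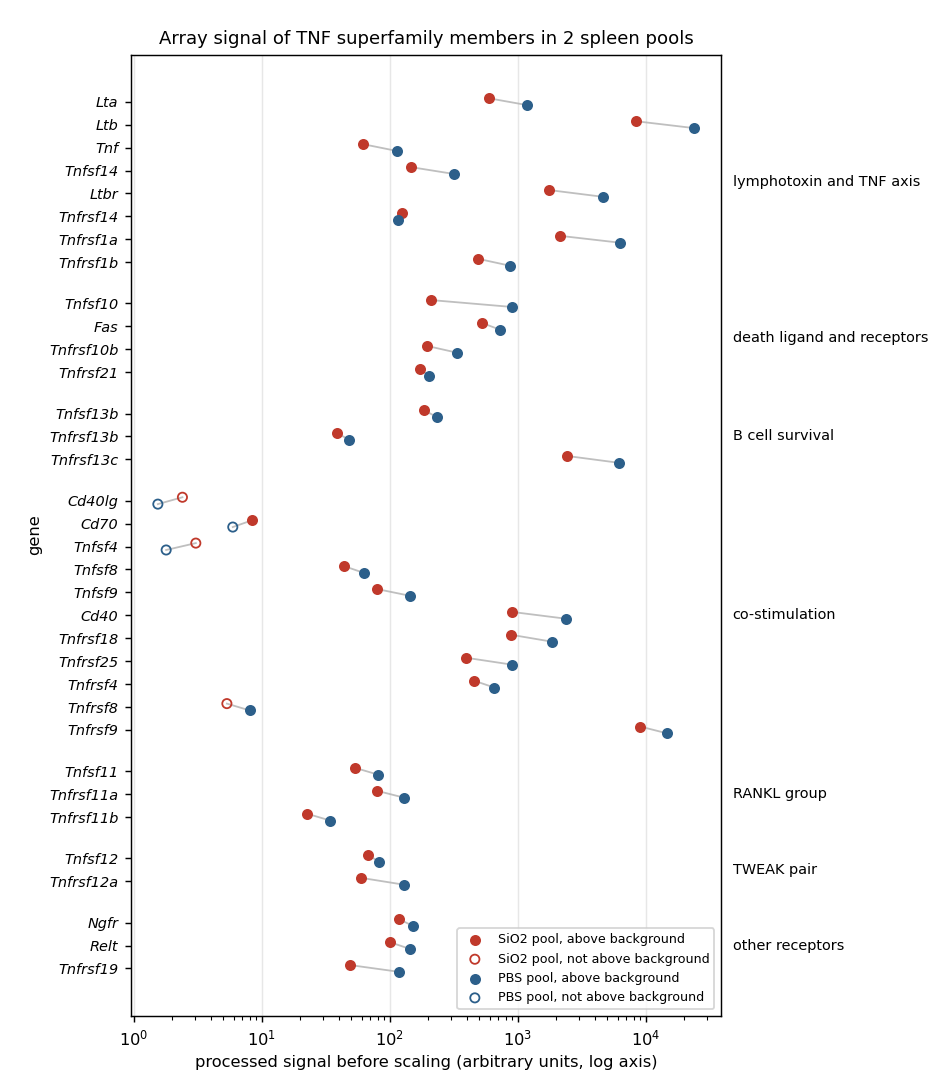
Processed signal of 34 members before scaling, on a log axis, in the SiO2 pool (red) and the PBS pool (blue), grouped by role, with open circles for probes not well above background. Tnfrsf14 is the member above background on both arrays with a higher unscaled signal in the SiO2 pool (124 against 115), and Tnfsf10 has the widest gap (209 against 893).

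The death ligand was the lowest member. Tnfsf10, or TRAIL, which interferons are known to induce, had a signal of 209 in the SiO2 pool and 893 in the PBS pool. It was 2.99-fold lower, at -1.58 ± 0.20, and 159 of 16693 named genes lay below it. It stayed at least 2-fold lower under every alternative that gave it a value, from -1.60 to -1.15. The interferon gene list lay low in the same pool. Of 14 interferon-stimulated genes measured, 12 were at least 2-fold lower, beside 3.71% of named genes, and 1 was 2-fold higher, beside 6.65%. The median was -1.78, and the 5 lowest were Zbp1 (-2.60), Oas2 (-2.56), Ifi44 (-2.40), Cxcl10 (-2.16) and Ifit3 (-2.07). Rsad2, also an interferon-stimulated gene, was the higher one (1.17). The summed scaled signal of the list was 60.1 in the SiO2 pool and 139 in the PBS pool. NK cell markers, from cells known to carry TRAIL, had a median of -1.57, with 8 of 10 at least 2-fold lower. Their summed scaled signal was 6.01 in the SiO2 pool and 20.2 in the PBS pool. Under normexp the NK median was -0.94, and 4 of 10 were at least 2-fold lower. Both lists were chosen with earlier results of these data known, and the part of either in the value of Tnfsf10 was not tested.

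The TRAIL receptor, Fas and death receptor 6 did not follow. Tnfrsf10b, the death receptor for TRAIL in mice, had a signal of 195 in the SiO2 pool and 337 in the PBS pool, at -0.28 ± 0.20. Fas had 525 in the SiO2 pool and 731 in the PBS pool, at 0.04 ± 0.20. Tnfrsf21, or death receptor 6, had 173 in the SiO2 pool and 200.2 in the PBS pool, at 0.30 ± 0.20. Fas thus lay within its error of 0, and Tnfrsf10b and Tnfrsf21 lay within 1.5-fold. Fasl, the ligand of Fas on cytotoxic cells, which was not among the 35, had a signal of 99.0 in the SiO2 pool and 304 in the PBS pool and was 2.15-fold lower, at -1.11, or -0.59 under normexp. TRAIL and Fasl were thus lower, with Tnfrsf10b and Fas nearer to 0, although this pairing was drawn after the values were seen. It leaves out Tnfrsf1a, the TNF receptor with a death domain (-1.04), and Tnfrsf25, or death receptor 3 (-0.67), which lay lower.

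Genes of the B cell survival system differed in both directions. Tnfrsf13c, the BAFF receptor of mature B cells, had a signal of 2421 in the SiO2 pool and 6189 in the PBS pool, at -0.84 ± 0.20. A second, dimmer probe of the gene had 79.5 in the SiO2 pool and 117.0 in the PBS pool, at -0.04, so its probes do not give the same size. Tnfrsf13b, or TACI, had 38.6 in the SiO2 pool and 48.3 in the PBS pool, at 0.19 ± 0.22, and its second probe gave 0.49. The ligand Tnfsf13b, or BAFF, had 184 in the SiO2 pool and 232 in the PBS pool, at 0.18 ± 0.20. BAFF, and TACI by its brighter probe, lay about 1 scanner error or less above 0. The second probe of TACI, at 0.49 ± 0.24, lay further above 0 than its error. The receptor of mature B cells lay below 0, but only its brighter probe by more than the scanner error. All 12 B cell markers were below 0, from -0.79 to -0.10, and their part in the value of Tnfrsf13c was not tested. Tnfsf13, or APRIL, had no probe of its own by accession.

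Among the co-stimulatory genes, Cd40 was the lowest. This receptor of B cells, dendritic cells and macrophages had a signal of 896 in the SiO2 pool and 2392 in the PBS pool, at -0.90 ± 0.20. Tnfrsf25, the death receptor 3 of T cells, had 394 in the SiO2 pool and 896 in the PBS pool, at -0.67 ± 0.20. Tnfrsf18, or GITR, which is high on regulatory T cells, had 889 in the SiO2 pool and 1848 in the PBS pool, at -0.54 ± 0.20. These 3 receptors kept their values within 0.1 under normexp, at -0.88, -0.61 and -0.58. The shift to lymphocyte markers brought them to -0.48, -0.25 and -0.11.

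The OX40 receptor Tnfrsf4, also high on regulatory T cells and next to Tnfrsf18 in the genome, had a signal of 454 in the SiO2 pool and 655 in the PBS pool, at -0.02 ± 0.20. Neighbours in the genome therefore did not always share a value. Tnfrsf9, or 4-1BB, an activation receptor of T and NK cells, had 9022 in the SiO2 pool and 14703 in the PBS pool, at -0.19, while its second probe, far dimmer, gave -0.69. Its ligand Tnfsf9 had 78.7 in the SiO2 pool and 143.9 in the PBS pool, at -0.36, or -0.11 under normexp. Regulatory and activated T cell genes had a median of -0.17, with 0 of 7 differing 2-fold.

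The CD30 pair was dim. The ligand Tnfsf8 had a signal of 43.6 in the SiO2 pool and 62.7 in the PBS pool, at -0.01 ± 0.21. Tnfrsf8, or CD30, was above background in the PBS pool only, with 8.05 there and 5.32 in the SiO2 pool. The lowest signals above background were 6.14 on the SiO2 array and 7.37 on the PBS array, so no fold could be given for it. Cd70, the ligand of CD27, cleared background on the SiO2 array alone, with a signal of 8.42 in the SiO2 pool and 5.92 in the PBS pool. Set against the lowest signal above background on the PBS array it was at least 1.63-fold higher, at a value of 0.70. The scanner error of its 2 measured signals was 0.48, which is not an error of this bound. Tnfsf4, the OX40 ligand, and Cd40lg, the CD40 ligand of activated T cells, were not above background on either array.

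The RANKL group lay close to 0. Tnfsf11, or RANKL, which drives osteoclasts and lymphoid organ development, had a signal of 53.3 in the SiO2 pool and 80.9 in the PBS pool, at -0.09 ± 0.21. Its receptor Tnfrsf11a had 78.9 in the SiO2 pool and 128 in the PBS pool, at -0.19 ± 0.21. The decoy receptor Tnfrsf11b, or osteoprotegerin, had 22.5 in the SiO2 pool and 34.1 in the PBS pool, at -0.09 ± 0.24. All 3 lay within their scanner error of 0 and turned positive under normexp, to 0.11, 0.04 and 0.32. The median of all named genes under normexp was 0.18, so the first 2 stayed below it.

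The TWEAK pair and the remaining receptors were also dim. Tnfsf12, or TWEAK, had a signal of 67.7 in the SiO2 pool and 82.1 in the PBS pool, at 0.23 ± 0.21, but its second probe gave -0.34. Its receptor Tnfrsf12a, or Fn14, known to be induced in injured tissue, had 59.7 in the SiO2 pool and 129 in the PBS pool, at -0.60 ± 0.21, or -0.25 under normexp.

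Tnfrsf19, or TROY, had a signal of 48.4 in the SiO2 pool and 118 in the PBS pool, at -0.78, while its second probe gave 0.23. The probes of TROY and of TWEAK disagreed in sign, and those of the other 5 members with 2 probes above background agreed. Ngfr, the p75 neurotrophin receptor of nerve and stromal cells, had 117.5 in the SiO2 pool and 152 in the PBS pool. Over its 10 spots it was at 0.14 with an SD of 0.071, and the unscaled spots did not overlap, from 108 to 125 in the SiO2 pool and from 146 to 161 in the PBS pool. Its positive value thus comes from the scaling. The same holds for Tnfsf12, Tnfsf13b, Fas, Tnfrsf13b and Tnfrsf21, whose positive values also go with lower unscaled signals in the SiO2 pool. Relt, a lymphocyte receptor, had 99.5 in the SiO2 pool and 143.4 in the PBS pool, at -0.01 ± 0.21.

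**Figure D3:**
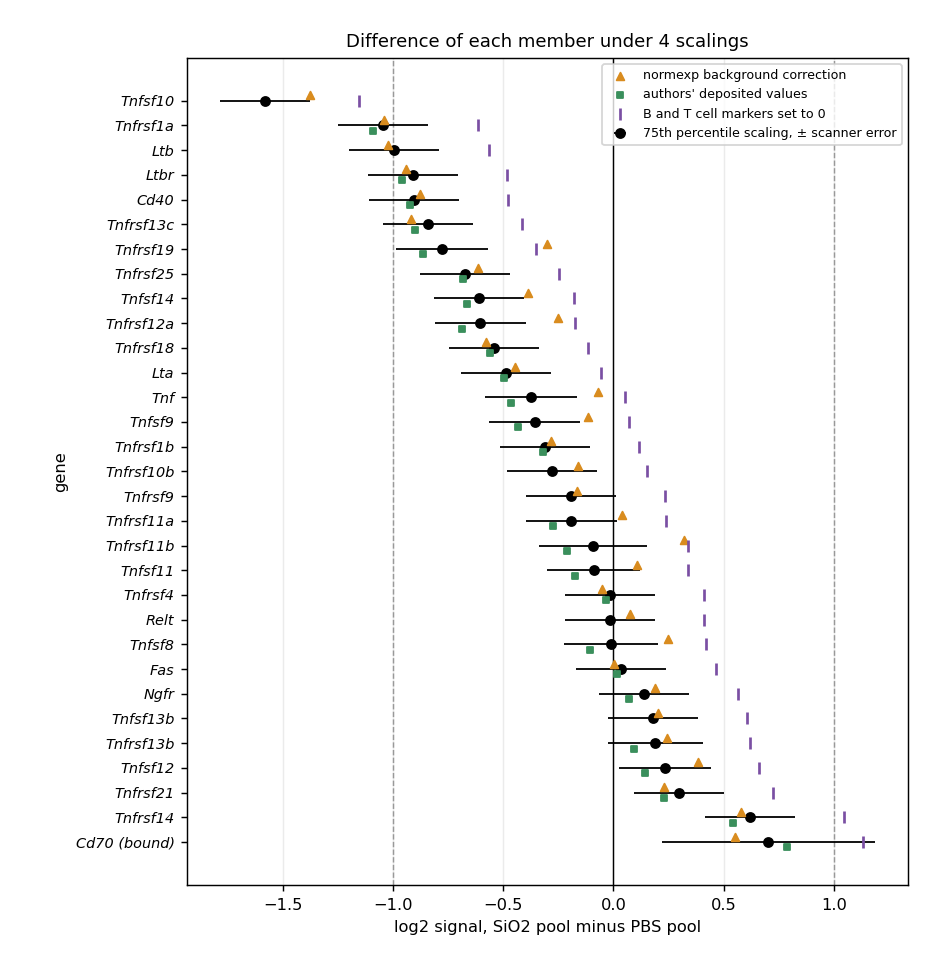
Log2 difference, SiO2 pool minus PBS pool, of the 31 members with a value, sorted, with black points and bars for the 75th percentile scaling and scanner error. The point of Cd70 is a bound, and its bar is the error of its measured signals. Triangles show normexp, squares the authors' deposited values and ticks the shift to B and T cell markers, and the shift adds 0.43 to each member, so that Tnfsf10 alone stays beyond the lower 2-fold line at -1.15.

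Genes that act with the family in the white pulp lay lower in the SiO2 pool too. Of 15 white pulp genes measured, 3 were at least 2-fold lower, beside 3.71% of named genes, and 0 were 2-fold higher, beside 6.65%. In this list 13 lay below 0, beside 48% of named genes, and the median was -0.78. Macrophage markers had a median of -0.79, dendritic cell markers -0.64, B cell markers -0.54 and T cell markers -0.25. Vcam1 is also a macrophage marker here and Ccr7 a dendritic cell marker. The part of these cell types in the white pulp values was not tested. Cxcl13, the B cell attracting chemokine that depends on lymphotoxin, was at -1.26, with a signal of 1720 in the SiO2 pool and 5865 in the PBS pool. Enpp2, which makes lysophosphatidic acid, and Bst1, a stromal surface enzyme, were each 2.03-fold lower. Under normexp Bst1 was at -0.99. Cr2, the complement receptor of B cells and follicular dendritic cells, was at -0.88. Probes of other genes of the list disagreed. Ccl19, the T zone chemokine, was at -0.95 by its brightest probe and -0.23 by its median probe. Madcam1, the addressin of marginal sinus cells, was at -0.80 by its brightest probe and at 0.66 by the median-probe rule, which turns its direction. After the shift to lymphocyte markers the median of this list was -0.35, and none of the 3 genes passed 2-fold any longer, with Cxcl13 at -0.83 and Enpp2 and Bst1 at -0.59 each. Ccl21a was not matched by accession and is not analysed here.

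Downstream genes were nearer to the family. The 16 NF-kB genes had a median of -0.37, or 0.06 after the shift. Of them, 3 passed 2-fold downwards and 0 upwards, beside 3.71% and 6.65% of named genes. The 3 were Rel (2.51-fold, or -0.40 under normexp), Bcl3 (2.32-fold), an atypical inhibitor of NF-kB, and Nfkb1 (2.07-fold, but at -0.53 by the mean over its probes and near 0 by the median-probe rule). After the shift none of the 3 passed 2-fold, with Rel at -0.90, Bcl3 at -0.78 and Nfkb1 at -0.62. Of the non-canonical arm that Ltbr and the BAFF receptor use, Map3k14 was at -0.74, Nfkb2 at -0.61, Relb at -0.54 and Chuk at -0.33. The shift put these 4 genes at -0.31, -0.18, -0.11 and 0.10. Of 17 adaptors and proteases of the pathway none differed 2-fold by its brightest probe, with a median of -0.24. Traf3, which holds Map3k14 in check, was at -0.86, Traf4 at 0.78 and Traf5, the median gene, at -0.24. The sheddase Adam17 was at -0.29, but at -0.65 by the mean over its probes and just past 2-fold lower by the median-probe rule. After the shift the median of the adaptors was 0.19 and Traf4 passed 2-fold. Of 9 other family genes measured, Fasl alone was 2-fold lower and the median was -0.31.

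**Figure D4:**
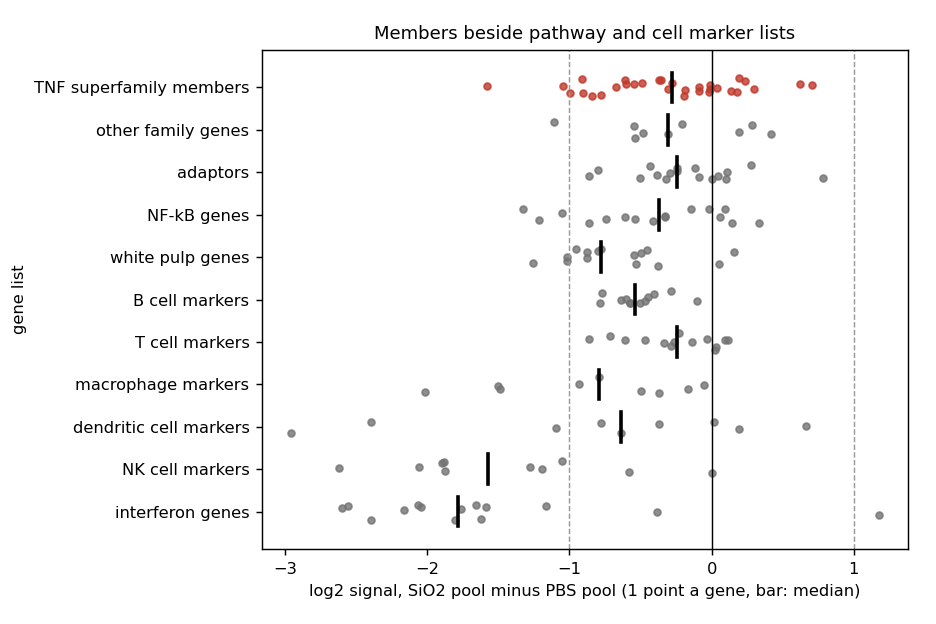
Log2 difference, SiO2 pool minus PBS pool, of single genes (points) and the median (bar) for the 31 members and 10 lists, with dashed lines at 2-fold. Other family genes (-0.31), adaptors (-0.24), NF-kB genes (-0.37) and T cell markers (-0.25) have medians near that of the members (-0.28). B cell (-0.54), dendritic cell (-0.64) and macrophage markers (-0.79) lie lower, as do white pulp (-0.78), NK cell (-1.57) and interferon genes (-1.78).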

How the data were processed

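Pooled RNA from SiO2 spleens and from PBS spleens was measured, each on 1 one-colour Agilent array. The deposited scanner files hold spot intensities, which the authors made with Agilent Feature Extraction, version 11.0.1.1 per the file headers and 9.1 per the submitters' processing notes. The authors' deposited value table holds log2 values of 26049 probes whose median was 5.68 on both arrays, and its normalization and filter are not given in the sources used here.

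From the processed intensities, control and outlier spots were left out, spots of a probe were averaged, log2 was taken and the array's 75th percentile subtracted. Of 39398 probes, 27217 (69.1%) were named by matching their accession to RefSeq. A gene was read from its brightest probe among those that either array read well above background. Where only 1 array did so, the value of the other array was raised to that array's lowest value above background if it lay under it. Otherwise it was kept as measured. The 81 of 16774 genes in which raising turned the direction were given no difference. Over 300 probes printed repeatedly, the SD of the difference between spots had a median of 0.061. With 1 array a group there is no test, and the number of arrays limits the precision.

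Every member was named. From the pathway lists (other family genes, adaptors, NF-kB, white pulp and interferon), up to 5 genes a direction that differed at least 2-fold were named, or the gene nearest the median where none did. Further genes of these lists were chosen after their values were seen. Cell type markers are given as lists. The members and lists were chosen with earlier results of these data known. Other settings were tried, 10 in all, and covered background correction (normexp, offset 50), normalization, the filter on dim probes, the choice of probe and the authors' values. The steps were tested on simulated data. R 4.3.3 with limma 3.58.1 and Python 3.11.15 were used.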

Additional observations from a re-analysis of the deposited data

How the results depend on the processing

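No paired analysis was possible because each group is 1 array, which also means that no array could be left out. The median of the members was -0.28 and lay between -0.32 and -0.11 under the 9 alternatives other than the shift to B and T cell markers, which gave 0.15. At least 2-fold higher were 0 members, but 2 after that shift (Cd70 and Tnfrsf14), 3 with no filter and no floor (Cd70, Tnfsf4 and Cd40lg, all near background) and 1 by the median probe (Tnfrsf14). Of all named genes, 6.65% were at least 2-fold higher before any change of setting, and 16.5% after the shift. With no filter and no floor the share was 8.03%, and by the median probe 6.88%. At least 2-fold lower were 2 members, but 1 after the shift (Tnfsf10), 1 in the authors' deposited values, which hold no value for Tnfsf10 or Ltb, and 1 each by the mean over probes and by the median probe, where Tnfrsf1a was at -0.82 and -0.59. It was 3 under normexp, quantile normalization, cyclic loess and the percentile over probes above background on both arrays, with Ltb added. Of all named genes, 3.71% were at least 2-fold lower before any change of setting, 1.41% after the shift and 1.54% under normexp. Under the other alternatives the share lay between 3.39% and 4.87%. The size of 1.5-fold was chosen after seeing the data. At that size 2 members were higher, but 0 under normexp and under quantile normalization, 1 under cyclic loess, in the authors' deposited values and with both arrays required above background, 4 with no filter and 6 after the shift. Lower were 10, but 7 under normexp, 8 in the authors' deposited values, 8 by the mean over probes, 9 by the median probe and 2 after the shift. The share of all named genes at 1.5-fold under these alternatives is not given here, so these counts cannot be read against it. The cause of these moves was not tested where no construction is named. Normexp on the mean spot signal was not run, and the median spot signal was used. Dim members are limited by background, and the scanner error covers neither animals nor labelling.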

Other observations

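The read-through gene Tnfsfm13, which spans Tnfsf12 and Tnfsf13, was not on the list but had 2 probes above background on both arrays. The dimmer had a signal of 170 in the SiO2 pool and 217 in the PBS pool, a log2 difference of 0.16. The brighter had a signal of 602 in the SiO2 pool and 802 in the PBS pool, at 0.10. These probes may also read Tnfsf12 or Tnfsf13 transcripts, which was not tested.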
